A study of Canis lupus familiaris with 34 samples.

Results

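The 6 snap-frozen primary osteosarcoma tissues of a canine array series were ranked by their transcripts for major histocompatibility complex (MHC) class II. The tissues were selected on measured values: the rank was the mean log2 intensity of DLA-DRA, DLA-DQA1, HLA-DRB1 and CD74, each read from its probe set of highest mean. The first 3 tissues in that rank are called the higher trio and the last 3 the lower trio, and these 6 make up 6 of the 34 arrays in the series. The split was made from the same arrays that are described here, so differences between the trios are given as values with no p-value. The whole series compared osteosarcoma tissue with lines grown from primary tumours (25 arrays) and from metastases (3 arrays), all on Affymetrix Canine_2 arrays. A single dog gave a pair of line arrays, whose mean was used, so 24 primary lines remain, each from a separate dog.

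The higher trio held tissue 5 (Golden Retriever, sex label FS, age at diagnosis label 6.72), tissue 2 (Belgian tervuren, MC, 6.1) and tissue 1 (Great Pyrenees, F, 7). The lower trio held tissue 3 (Golden Retriever, FS, 2.7), tissue 4 (Borzoi, F, 11.91) and tissue 6 (Golden Retriever, FS, 2.67). The labels give no unit for age. Rottweiler was the most frequent breed label of the primary lines, and no tissue came from that breed. Breed was therefore not balanced between tissues and lines. The lines came from dogs of both sexes (labels M, MC, F and FS), with age labels over nearly the same range as the tissues. Some line labels were missing. Tissues 5 and 6 came from dogs that also gave a primary line. A tissue sample mixes tumour cells with vessels, stroma and infiltrating cells, and in such bulk RNA fewer cells of a type and less RNA per cell cannot be told apart.

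MHC class II molecules are pairs of alpha and beta chains that show peptides from engulfed proteins to CD4+ T cells. The invariant chain, CD74, holds the groove until the vesicle where the exchange factor DM loads the peptide. Macrophages, dendritic cells and B cells carry these molecules constitutively, most canine T cells carry them as well, and other cell types can be induced by interferon gamma to make them.

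The ranking mean was 12.83 in tissue 5, 11.78 in tissue 2 and 11.76 in tissue 1, against 10.72 in tissue 3, 10.63 in tissue 4 and 8.50 in tissue 6. All values are log2 of the deposited intensity unless a fold is named. Tissue 1, the last inside the higher trio, and tissue 3, the first outside it, were 1.04 apart. The trio means were 12.12 and 9.95, with a pooled SD within the trios of 0.986. Tissue 6 lay further below tissue 4 than tissue 3 lay below tissue 1, so the lower trio is itself uneven. The trios kept the same members under 7 other ways of making the rank, with a gap of 0.65 to 1.17.

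**Figure D1:**
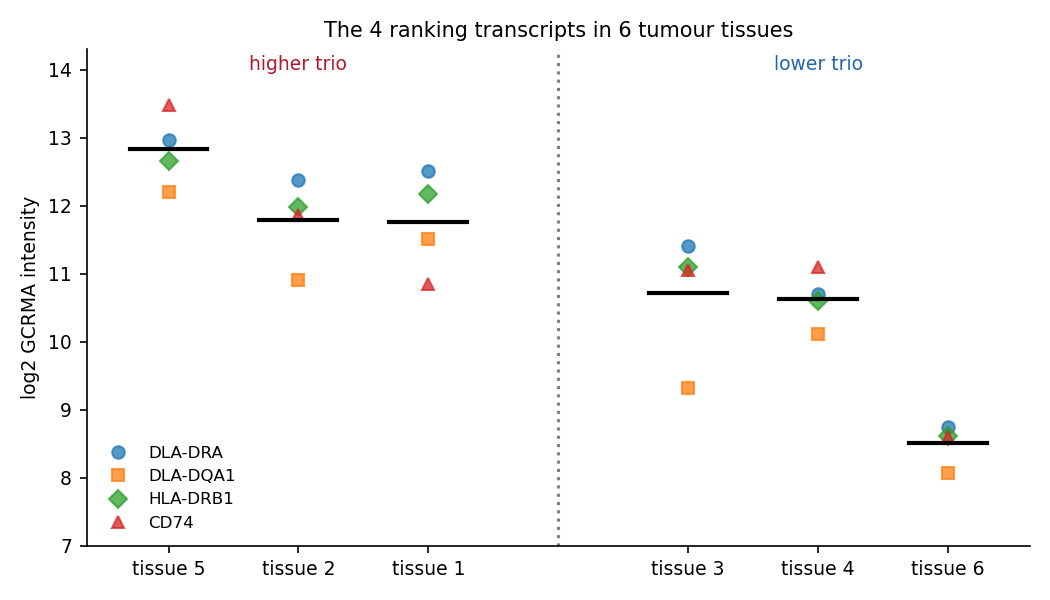
Log2 intensity of the 4 ranking transcripts (symbols) and their mean (black bars) in the 6 tumour tissues, higher trio on the left of the dotted line and lower trio on the right. The bar of tissue 6 is at 8.50, below all others, and CD74 of tissue 1 lies below CD74 of tissues 3 and 4.

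The ranking transcripts other than CD74 separated the trios, which is a description of the rule. DLA-DRA, the class II DR alpha chain, was 12.97, 12.37 and 12.51 in tissues 5, 2 and 1, against 11.41, 10.71 and 8.74 in tissues 3, 4 and 6. CD74 was 13.48, 11.87 and 10.84 in tissues 5, 2 and 1, against 11.06, 11.09 and 8.59 in tissues 3, 4 and 6. For CD74 the trios overlapped, since tissue 1 stood below tissues 3 and 4. Class II transcripts outside the rule were the DQ beta chain and the DM chains. DLA-DQB1, the DQ beta chain, was 12.20, 10.88 and 11.46 in the higher trio, against 9.13, 9.73 and 6.89 in the lower. DLA-DMB, the DM beta chain, was 8.54, 6.92 and 7.12, against 5.31, 3.81 and 3.36. Neither gene overlapped between the trios, whereas the DM alpha chain DLA-DMA did, as tissue 2 (9.03) stood below tissue 3 (9.15).

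In what follows a gene separates the trios where every tissue of one trio exceeded every tissue of the other and the trio means differed at least 2-fold. Of 7849 genes tested, 229 (2.92%) separated the trios with higher levels in the higher trio and 267 (3.40%) with lower levels. The median difference over all genes was -0.08. With fewer tissues that must not overlap, the share higher was 4.96% without tissue 1, 3.80% without tissue 2, 5.16% without tissue 3, 8.09% without tissue 4, 5.87% without tissue 5 and 3.55% without tissue 6. The shares lower were 5.90%, 3.62%, 5.95%, 8.40%, 7.26% and 4.45% in the same order. Of the class II list, 13 members passed the filter on dim probe sets, 4 of which are the ranking transcripts. Of the other 9, DLA-DQB1 and DLA-DMB separated the trios, and the median difference over these 9 was 0.54. Members that passed had to be over log2 5 on at least 3 of the 34 arrays, so a list's count is over those members and not over all that were listed. The loading genes CTSS (difference 0.55), LGMN (-0.04) and IFI30 (0.03), which encode lysosomal proteins of antigen processing, overlapped between the trios. The transactivator CIITA was at most 2.85 in any tissue and did not pass the filter. Of the class I list, which holds the chains and loading genes of the other antigen presentation route, 0 of 12 separated higher. The mean was higher in the higher trio for 8 of the 12, most for DLA-79 (2.73), DLA-64 (2.66) and PSMB8 (1.81), with overlapping trios. ERAP1, a peptide-trimming protease, separated lower (difference -1.22). It was under log2 5 in the higher trio, and tissues 5 (4.48) and 3 (4.64) were nearly level.

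The comparison of the label groups was tested and does not depend on the split. All 6 tissues together were set against the 24 primary lines with limma and Benjamini-Hochberg adjustment. A call needed an adjusted p under 0.05 and at least a 2-fold difference, and 711 genes (9.06%) were higher and 437 (5.57%) lower in tissues. DLA-DRA averaged 11.45 in tissues and 2.51 ± 1.62 (SD, n = 24) in lines, a difference of 8.94 (SE 0.85, limma adjusted p = 5.57e-10). DLA-DQB1 differed by 7.57 (SE 0.49, limma adjusted p = 5.27e-14) and DLA-DMB by 3.0 (SE 0.41, limma adjusted p = 1.45e-06). Against the 2 lines that shared the tissues' title prefix, DLA-DMB differed by 3.30 without the call (adjusted p = 0.2). Of the 229 genes higher in the higher trio, 48 (20.96%) were higher in tissues and 29 (12.7%) lower. Of the 267 genes lower in it, 40 (14.98%) were higher in tissues and 12 (4.49%) lower.

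All 6 tissues shared 1 prefix in their titles, a possible batch, so the prefix does not divide the trios. Only 2 primary lines carried it, so the tests against lines rest mainly on arrays of the other prefixes. Of those 2 lines, 1 came from the dog of tissue 5. Set against those 2 lines alone, 171 genes were higher and 80 lower in tissues, and with the prefix as a covariate 345 and 222. Since all tissues share the prefix, both fits give a gene the same difference, and only its error differs. They are thus not separate checks of a difference. With so few lines a call can be lost while the difference stays wide. The difference between the 3′ and 5′ actin probe sets, which grows as RNA degrades, was 2.44, 2.72 and 2.73 in the higher trio. In the lower trio it was 4.61, 1.76 and 1.27, so tissue 3 was above and tissues 4 and 6 below the higher trio. The same difference for GAPDH was 3.11, 3.40 and 2.96 in the higher trio, against 3.46, 3.16 and 3.09 in the lower. For GAPDH tissue 3 was thus close to tissue 2, and tissues 4 and 6 lay within the range of the higher trio. The part of RNA quality in the differences below was not tested. Array medians ran from 8.28 to 8.67 in linear intensity.

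Macrophage transcripts were present in all 6 tissues, and a minority of them separated the trios. Of 19 macrophage list members that passed, 4 separated, all higher (21.1%, beside 2.92% of all genes), and 18 had the higher mean in the higher trio. The median difference was 1.17, or 0.75 without tissue 6. LYZ, the secreted enzyme lysozyme, was 13.19, 12.98 and 13.25 in the higher trio, against 11.76, 10.80 and 10.96 in the lower. CYBB, the catalytic subunit of the phagocyte NADPH oxidase, was 11.39, 10.14 and 10.44, against 9.23, 9.18 and 6.33. MRC1, the mannose receptor, was 8.36, 7.51 and 9.08, against 6.60, 6.45 and 4.32. APOE, a lipid carrier, was the fourth, with a difference of 1.16, or 0.56 on another probe set. Tissue 1 (10.66) and tissue 4 (10.61) were nearly level for APOE. The lines carried APOE as well (median 10.62), and it was not called against them (limma adjusted p = 0.315). The gap for LYZ lay between tissue 2 and tissue 3, and tissue 6 stood alone at the low end for CYBB and MRC1.

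Other defining macrophage genes did not follow the split. CD163, a scavenger receptor for haemoglobin, was 9.48, 8.88 and 10.15 in the higher trio, against 10.31, 7.75 and 6.15 in the lower, so tissue 3 held the highest value. CD68, a lysosomal glycoprotein, was 10.46, 6.28 and 7.84, against 9.86, 6.79 and 10.39, and its mean was lower in the higher trio. TYROBP, an adaptor of myeloid receptors, was 9.19, 7.23 and 8.22, against 9.22, 6.30 and 7.98. The mean over the 19 members was 9.42, 8.08 and 8.53 in the higher trio and 8.71, 7.24 and 6.56 in the lower, so tissue 3 exceeded tissues 2 and 1. Without tissue 3, 11 of the 19 separated, beside 5.16% of all genes, and without tissue 2, 8 did, beside 3.80%. Against the lines, 18 of the 19, all but APOE, were called higher in tissues by limma, beside 9.06% of all genes. The limma differences were 9.89 for LYZ (SE 0.35, adjusted p = 5.15e-21), 6.46 for CYBB (SE 0.36, adjusted p = 6.18e-16) and 3.73 for MRC1 (SE 0.32, adjusted p = 7.39e-11). Against the 2 lines of the same prefix MRC1 differed by 3.90 without the call (adjusted p = 0.0932).

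Markers of the other professional antigen-presenting cells were mostly dim. Of 16 dendritic cell genes with a probe set, 5 passed and 1, CD40, separated the trios, beside 2.92% of all genes. CD40, the receptor for T cell CD40 ligand, was 6.17, 4.61 and 8.02 in the higher trio, against 3.96, 4.30 and 3.25 in the lower. The gap between tissue 2 and tissue 4 was narrow, and endothelial and other cells also carry CD40. CD80, a costimulatory ligand of T cells, was 7.65, 5.20 and 7.71, against 5.35, 3.61 and 3.38, and overlapped through tissues 2 and 3. The maturation marker CD83 (difference -1.29) and the actin-bundling protein FSCN1 (-0.90) had the lower mean in the higher trio, and CD83 was 8.44 in tissue 6, its highest value. The B cell genes CD79A, CD79B and MS4A1 were at most 2.54 in every tissue, which is near the floor of the array. JCHAIN, the immunoglobulin joining chain, averaged 10.57 in the higher trio and 8.90 in the lower, but was also 9.35 on average in lines, so it was not read as a plasma cell marker. The label "antigen-presenting-cell rich" therefore rests on class II and on a part of the macrophage genes, and the tissues are called here by their class II rank.

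Pan-leukocyte genes had higher means in the higher trio for 8 of 8 members that passed, with a median difference of 1.51. Of the 8, 1 separated (12.5%, beside 2.92% of all genes). That gene, ARHGDIB, was 10.62, 10.13 and 10.45, against 8.17, 7.98 and 8.35. PTPRC, the leukocyte phosphatase CD45, was 7.11, 6.24 and 4.74, against 3.74, 5.10 and 5.25, and overlapped because tissue 1 was low. RAC2, a GTPase of blood cells, was 11.15, 9.01 and 8.08, against 9.36, 6.48 and 10.54, with tissue 6 above tissues 2 and 1. The median was 0.88 without tissue 5. The count of separating genes was 6 without tissue 3 (5.16% of all genes), 4 without tissue 2 (3.80%) and 3 without tissue 1 (4.96%). All 8 were called higher in tissues than in lines by limma, beside 9.06% of all genes. Against the 2 lines of the same prefix CORO1A (1.76, adjusted p = 0.426) and CD37 (3.39, adjusted p = 0.144) lost the call, and CORO1A also lost it with the prefix as a covariate (adjusted p = 0.191).

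Most T cell transcripts that were over log2 5 in any tissue were highest in tissue 5. Of 23 T and NK cell genes with a probe set, 10 were over log2 5 in tissue 5, 1 each in tissues 2 and 1, and 0, 3 and 0 in tissues 3, 4 and 6. CD3D, a chain of the T cell receptor complex, was 8.81 in tissue 5, 2.54 in tissue 2 and 3.51 in tissue 1, against 2.66, 2.64 and 3.18 in tissues 3, 4 and 6. GZMK, a granzyme of cytotoxic lymphocytes, was 7.09 in tissue 5 and at most 3.10 elsewhere. CCL5, a chemokine of T cells and NK cells, was 11.33, 4.35 and 6.72, against 4.90, 6.25 and 4.62. CXCL10, an interferon gamma target that draws T cells, was 12.45, 4.43 and 7.15, against 3.67, 5.69 and 3.79. In all of these tissue 5 stood highest, and tissue 2 stood within the range of the lower trio or below it. CD2, an adhesion receptor of T and NK cells, and NKG7, a granule protein of cytotoxic cells, did separate the trios, although neither passed the filter over the 34 arrays. They were 2 of the 21 members that did not pass, beside 1.89% of all genes without the filter. Of the 2 members that passed, 0 separated. NKG7 was 7.61, 3.77 and 3.49, against 2.94, 2.78 and 3.26, so tissue 5 alone was over log2 5 and tissues 1 and 6 were nearly level. CD2 was 7.51, 6.06 and 4.74, against 3.79, 4.06 and 2.93. CD8B, a coreceptor chain of cytotoxic T cells, was 5.46, 3.09 and 4.33, against 2.87, 7.16 and 3.76, so tissue 4 stood highest.

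Interferon targets were high in tissue 5 and, for type I genes, also in tissue 4. GBP1, a GTPase induced by interferon gamma, was 8.90, 5.75 and 4.24 in the higher trio, against 3.95, 3.90 and 3.88 in the lower. It was the 1 of 9 interferon gamma genes that separated, beside 2.92% of all genes. Of 11 type I interferon genes 0 separated, or 4 without tissue 4 (8.09% of all genes) and 3 without tissue 1 (4.96%). Their mean was 9.0, 7.63 and 6.56 in the higher trio, against 6.5, 8.46 and 5.26 in the lower. MX1, an antiviral GTPase, was 10.55, 8.53 and 6.11, against 6.59, 8.13 and 3.85, so tissue 4 stood above tissue 1. Some mast cell genes were over log2 5 in tissue 2 alone, where CPA3 was 6.73, CMA1 5.50 and FCER1A 5.49, and at most 2.58 in the other tissues. Other mast cell members did not do so. MS4A2 was 4.82 in tissue 2 and 4.15 in tissue 3, and HDC was near the floor in every tissue (2.32 in tissue 2, 2.35 in tissue 4). Of the granulocyte and mast cell list, 3 genes passed and 0 separated, with a median difference of 2.09. These were S100A8 (2.09), S100A9 (2.27) and MPO (-0.40).

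**Figure D2:**
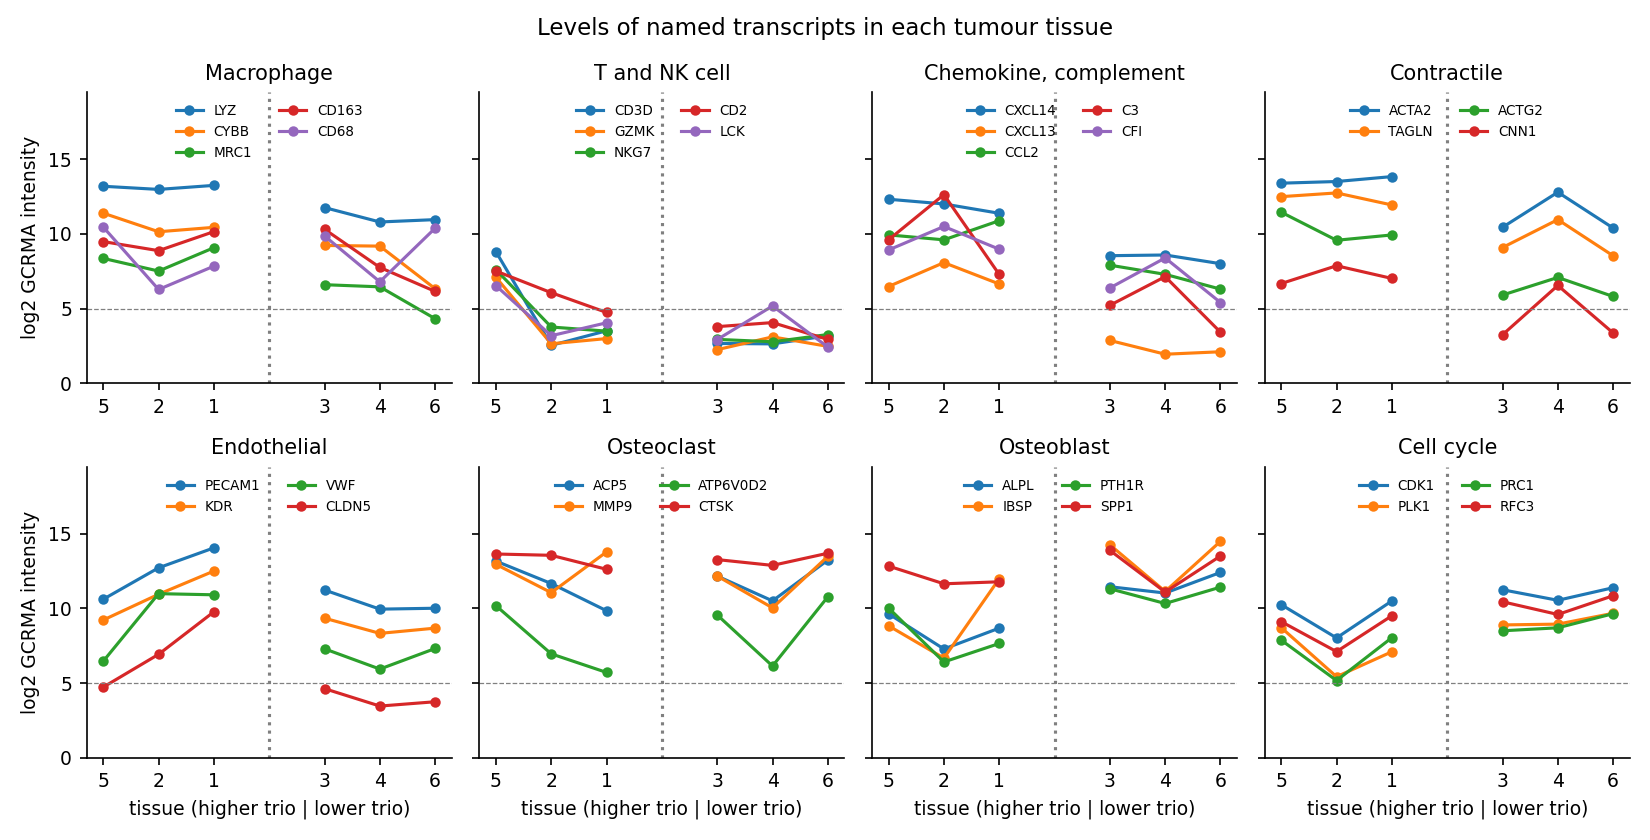
Log2 intensity of named transcripts in each tissue, in panels by gene group, with the higher trio (5, 2, 1) left of the dotted line and the lower trio (3, 4, 6) right of it. Lines only join the points of one gene, and the dashed line marks log2 5. CD3D, GZMK and NKG7 stand high in tissue 5 alone, the chemokine and contractile genes are lower on the right of the dotted line, and the cell cycle genes are lowest in tissue 2.

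Chemokines and complement gave some of the widest differences. Of 11 chemokine and cytokine genes that passed, 4 separated, all higher (36.4%, beside 2.92% of all genes), with a list median of 1.84. CXCL13, one of the 4, passed the filter through the higher trio alone, being over log2 5 in its 3 tissues and in 0 of the other arrays, so it had to differ. This chemokine, which draws B cells, was 6.48, 8.08 and 6.65 in the higher trio, against 2.87, 1.94 and 2.11 in the lower. The lower trio was near the array's floor, so the difference of 4.76 depends on that floor. CXCL14 was 12.32, 12.01 and 11.38, against 8.54, 8.59 and 8.0. CCL2, which draws monocytes, was 9.93, 9.60 and 10.88, against 7.91, 7.29 and 6.30. CXCL16, a transmembrane chemokine, had a difference of 1.66. CXCL14, CCL2 and CXCL16 were over log2 5 in all 6 tissues. The list's median was 0.97 without tissue 6.

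Of 8 complement genes that passed, 4 separated, all higher (50%, beside 2.92% of all genes), with a median difference of 1.91. C3, the central component, was 9.61, 12.63 and 7.28 in the higher trio, against 5.22, 7.14 and 3.42 in the lower. SERPING1, the C1 inhibitor, was 12.12, 12.23 and 12.09, against 9.50, 11.50 and 7.84. CFI, the protease factor I that inactivates C3b, was 8.92, 10.50 and 8.97, against 6.38, 8.39 and 5.40, and CFD, factor D of the alternative pathway, differed by 1.99. Tissue 4 came closest to the higher trio for C3, CFI and SERPING1. Without tissue 1, 7 of the 8 separated, beside 4.96% of all genes. Against the lines, C3 was higher in tissues by 4.46 (SE 1.16, limma adjusted p = 0.00518), with 4.52 and an adjusted p = 0.25 against the 2 lines of the same prefix. CXCL14 was higher by 5.70 (SE 1.17, limma adjusted p = 0.000498), with 5.87 and an adjusted p = 0.0552 there. CCL2 did not pass the test (-0.77, limma adjusted p = 0.557).

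Cultured cells could carry some of these transcripts too. Tissue 5 had 12.32 for CXCL14, 9.61 for C3 and 12.12 for SERPING1, against 3.11, 2.84 and 7.83 in the line from the same dog. Tissue 6 had 8.0, 3.42 and 7.84, against 11.12, 10.91 and 11.32 in the line from its dog. The 2 dogs thus ran in opposite directions for these 3 genes. For LYZ, CYBB and DLA-DRA both lines were at 3.21 or below.

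Stromal genes differed by kind. Of 10 pericyte and smooth muscle genes that passed, 4 separated, all higher (40%, beside 2.92% of all genes). All 10 had the higher mean in the higher trio, with a median difference of 2.03. TAGLN, the actin-binding protein transgelin, was 12.49, 12.74 and 11.94, against 9.09, 10.96 and 8.53. CNN1, calponin of smooth muscle, was 6.68, 7.87 and 7.02, against 3.25, 6.55 and 3.37. ACTA2, the smooth muscle alpha actin, was 13.40, 13.51 and 13.84, against 10.44, 12.79 and 10.39. ACTG2 and ACTA1, other muscle actins, differed by 4.05 and 2.51, of which ACTA1 was listed as a skeletal muscle gene. The actin genes are close relatives with near-identical coding sequence, so their probe sets may not tell them apart. Tissue 4 was nearest to the higher trio in each of TAGLN, CNN1 and ACTA2, and tissues 3 and 6 were low together. The lines also carried contractile transcripts, and TAGLN was lower in tissues than in lines by -2.29 (SE 0.68, limma adjusted p = 0.0138), which was not called against the 2 lines of the same prefix (-2.11, adjusted p = 0.323). TAGLN was not called without tissue 3 (-1.92, adjusted p = 0.0618) or without tissue 6 (-1.81, adjusted p = 0.0714) either. RGS5, a pericyte gene, was 5.96, 8.98 and 7.57, against 5.90, 6.13 and 6.27, and did not separate the trios because tissue 5 was low. Without tissue 5, 8 of the 10 list members separated, beside 5.87% of all genes, and without tissue 1 the median was 1.32.

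Endothelial genes had higher means in the higher trio for 13 of 13 members that passed, with a median difference of 1.97, but 1 (7.69%, beside 2.92% of all genes) separated. PECAM1, the junction protein CD31, was 10.62, 12.72 and 14.06, against 11.24, 9.96 and 10.02. VWF, the von Willebrand factor, was 6.47, 10.99 and 10.92, against 7.30, 5.94 and 7.32. CLDN5, a tight junction claudin and the 1 that separated, was 4.73, 6.93 and 9.78, against 4.63, 3.47 and 3.76, with tissues 5 and 3 nearly level. Tissues 2 and 1 were high and tissue 5 lay among the lower trio, so that without tissue 5, 12 of the 13 separated, beside 5.87% of all genes. Without tissue 3 it was 8 (5.16% of all genes), without tissue 4 it was 2 (8.09%), and without tissue 1 the median was 1.27. The tissue with the most class II and T cell transcripts was thus not among those with the most endothelial transcripts.

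Of 21 fibroblast and interstitial matrix genes 1 (4.76%, near the 2.92% of all genes) separated, COL5A1, a fibrillar collagen chain (difference 1.56), with a median difference of 0.89. Without tissue 4 it was 7 members (8.09% of all genes), without tissue 5 it was 5 (5.87%), without tissue 6 it was 3 (3.55%) and without tissue 1 it was 2 (4.96%). The median was 0.51 without tissue 2 and 0.58 without tissue 3. COL1A1 and COL1A2, the chains of type I collagen, differed by 0.16 each. ASPN, the matrix proteoglycan asporin, had a wide but overlapping spread, at 10.01, 12.14 and 10.03 against 3.41, 6.24 and 10.27. Osteoclast genes had a median difference of -0.01 and 0 of 7 separated, although osteoclasts share the myeloid origin of macrophages. ACP5, the tartrate-resistant acid phosphatase, was 13.17, 11.67 and 9.85 in the higher trio, against 12.17, 10.51 and 13.24 in the lower. Tissues 5 and 6, at opposite ends of the class II rank, held the highest ACP5.

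**Figure D3:**
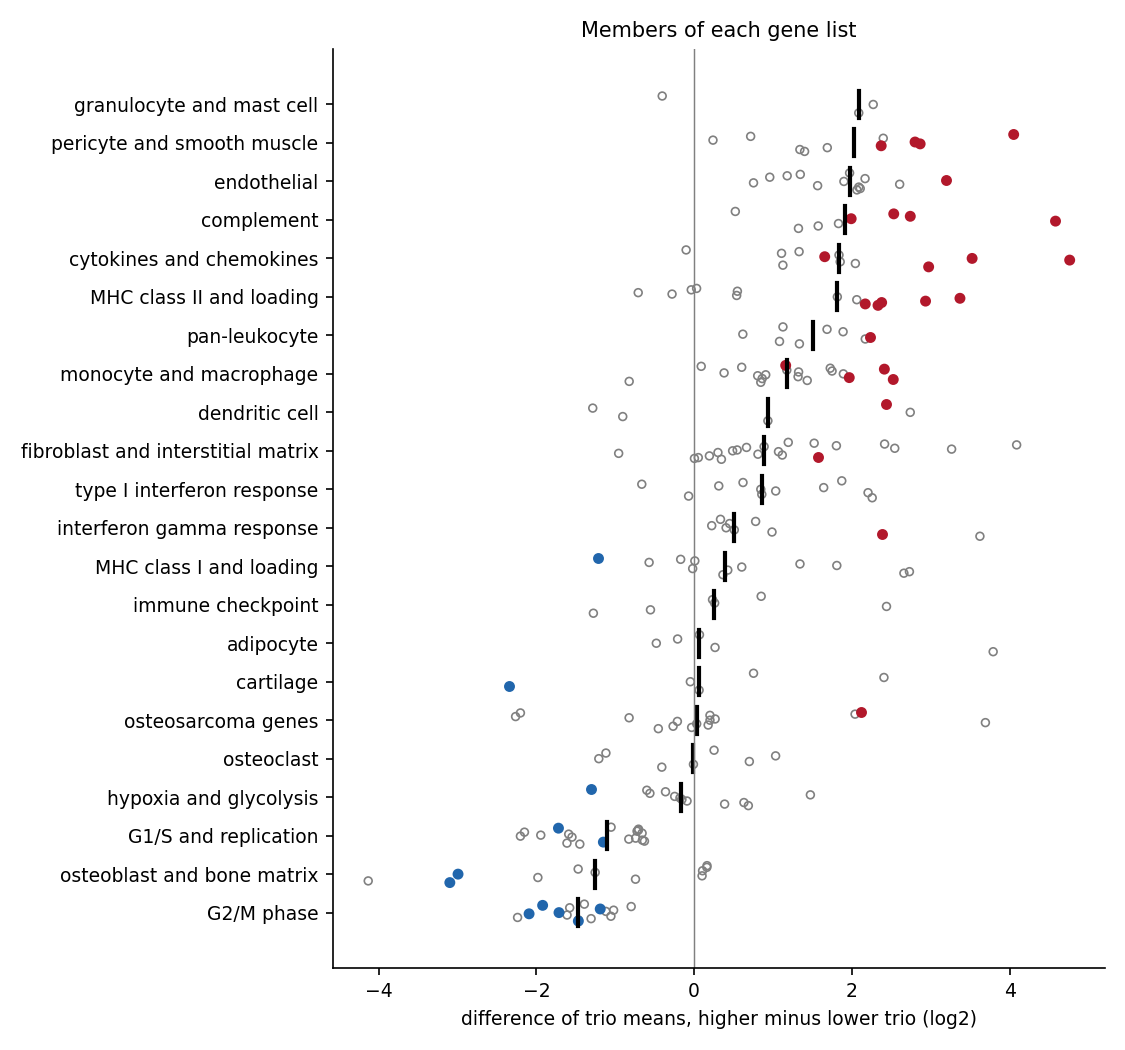
Difference of trio means (higher minus lower trio, log2) for each list member that passed the filter, with black bars at the list medians. Filled points separate the trios and open points do not. The medians of the complement, pericyte and endothelial lists lie between 1.91 and 2.03, the class II list holds the 4 ranking transcripts, osteoclast members lie around 0 with a median of -0.01, and G2/M members all lie to the left with a median of -1.47.

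Some osteoblast genes ran the other way. Of 11 osteoblast and bone matrix genes that passed, 2 separated, both lower in the higher trio (18.2%, beside 3.40% of all genes). The higher mean was in the higher trio for 4 of the 11. The median difference was -1.25. That median was -0.52 without tissue 2, -0.69 without tissue 6 and -1.97 without tissue 5. Without tissue 4, 5 genes separated, beside 8.40% of all genes, and without tissue 5 it was 4 (7.26%). ALPL, the bone alkaline phosphatase, was 9.64, 7.29 and 8.68 in the higher trio, against 11.46, 11.03 and 12.41 in the lower. PTH1R, the parathyroid hormone receptor, was 10.03, 6.42 and 7.66, against 11.32, 10.33 and 11.43. IBSP, bone sialoprotein, was 8.84, 6.67 and 11.99, against 14.26, 11.14 and 14.50, and overlapped since tissue 1 exceeded tissue 4. Tissue 2 was lowest for all 3 genes. All 3 were higher in tissues than in lines by limma, ALPL by 6.69 (SE 0.86, adjusted p = 4.09e-07), PTH1R by 6.21 (SE 0.61, adjusted p = 1.48e-09) and IBSP by 8.38 (SE 0.60, adjusted p = 6.27e-13). Against the 2 lines of the same prefix PTH1R differed by 5.57 without the call (adjusted p = 0.0594).

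Cell cycle genes were lower in the higher trio, and tissue 2 set much of that. All 15 G2/M genes and all 18 G1/S genes that passed had the lower mean in the higher trio, with median differences of -1.47 and -1.10. Of these, 5 (33.3%) and 2 (11.1%) separated the trios, beside 3.40% of all genes. PLK1, a mitotic kinase, was 8.72, 5.43 and 7.10, against 8.90, 8.95 and 9.68. CDK1, the kinase that drives entry into mitosis, was 10.25, 8.03 and 10.50, against 11.25, 10.55 and 11.39. RFC3, a subunit of the replication factor that loads the sliding clamp, was 9.12, 7.11 and 9.51, against 10.45, 9.60 and 10.85. Without tissue 2 the medians were -0.68 and -0.47, and 2 and 0 genes separated, beside 3.62% of all genes. Without tissue 5, 10 and 5 genes did (7.26% of all genes), and without tissue 4 it was 7 and 7 (8.40%). Without tissue 6 it was 4 and 1 (4.45%), with a G1/S median of -0.68. Against the lines 0 of the 15 G2/M genes and 1 of the 18 G1/S genes passed, beside 9.06% of all genes called higher. That gene, CCNE2, was at 2.15 (SE 0.76, limma adjusted p = 0.0375), which turned to -1.46 with the title prefix as a covariate. CCNE2 was not called without tissue 1, 3, 4 or 6 (adjusted p from 0.0501 without tissue 4 to 0.167 without tissue 6).

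Genes often altered in osteosarcoma had a median difference of 0.03, and 1 of 15, FOS, separated the trios (6.67%, beside 2.92% of all genes). FOS, an immediate early transcription factor, was 14.39, 13.31 and 14.04 in the higher trio, against 13.23, 11.28 and 10.89 in the lower. The values of tissues 2 and 3 were nearly level. MYC differed by -0.45 and the cyclin-dependent kinase CDK4 by -0.03, both with overlapping trios. WIF1, a secreted WNT inhibitor, was 12.89, 7.51 and 10.68, against 12.51, 12.17 and 13.20, and overlapped through tissue 5. Of 12 hypoxia and glycolysis genes 1, the collagen hydroxylase subunit P4HA1, separated, lower by -1.31 (8.33%, beside 3.40% of all genes).

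Across all genes, the 12 widest separations with higher levels in the higher trio were LOC479668, LOC100855558, ABI3BP, CXCL13, SFRP4, C3, ITGBL1, LOC477072, TGM2, GASK1A, ACTG2 and KCNMB1. They ran from a difference of 4.03 for KCNMB1 to 6.45 for LOC479668. LOC479668 passed the filter through the higher trio alone and so had to differ. Its level was highest in tissue 2, at 5.06, 14.98 and 7.77 in the higher trio, against 3.56, 2.24 and 2.67 in the lower. LOC477072 was also highest in tissue 2 (12.35), while tissue 5 (3.64) and tissue 4 (3.55) were nearly level. SFRP4, a secreted frizzled-related modulator of WNT signalling, was 12.52, 12.10 and 14.01, against 8.69, 10.74 and 5.02. TGM2, a transglutaminase that crosslinks proteins, was 5.80, 6.94 and 8.78, against 3.37, 3.29 and 2.36. KCNMB1, the smooth muscle subunit of a calcium-activated potassium channel, was 7.18, 5.36 and 6.88, against 2.35, 2.36 and 2.62. For SFRP4 both trios were over log2 5, while for TGM2 and KCNMB1 the lower trio was near the floor. ABI3BP, a matrix protein, differed by 5.08 on the probe set used and by 0.88 on another of its probe sets.

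The 12 widest separations in the other direction were SCML2, BMP7, APCDD1, ROBO2, NDNF, LIFR, PROM1, CYFIP2, SGMS2, MDGA2, MYO3A and ANK3, from -4.62 to -3.11. Several were near the floor in the higher trio, such as SCML2 at 2.80, 2.27 and 3.25, so the size and order of these differences depend on that floor. SGMS2 passed the filter through the lower trio alone and so had to differ. BMP7, a bone morphogenetic protein, was 4.25, 2.00 and 4.90 in the higher trio, against 8.77, 7.46 and 8.18 in the lower. APCDD1, a membrane inhibitor of WNT signalling, was 5.63, 3.31 and 5.80, against 9.17, 9.13 and 8.99. NDNF, a secreted neurotrophic factor, was 9.57, 6.10 and 8.45, against 11.92, 10.50 and 13.30. On other probe sets BMP7 differed by -1.59 and ANK3 by -0.46. The lower trio was tight for APCDD1, and tissue 2 was lowest for all 3 genes. LIFR, the receptor for leukaemia inhibitory factor, was 8.11, 4.80 and 5.97, against 10.39, 8.23 and 10.43, with tissues 5 and 4 nearly level. ROBO2, an axon guidance receptor of SLIT ligands, was 3.18, 3.67 and 6.12, against 9.26, 6.24 and 9.68. PROM1, the membrane protein CD133, was 3.62, 4.54 and 6.90, against 7.65, 9.09 and 8.38. In these last 3 genes tissue 1 or 5 came closest to the lower trio, and for ROBO2 tissues 1 and 4 were nearly level. Some of the 12 separated narrowly, with a wide mean difference set by 1 tissue. For MYO3A tissue 1 (4.91) and tissue 4 (4.99) were nearly level, and tissue 3 stood apart at 10.50. For MDGA2 tissue 1 was 2.47 and tissue 4 was 2.68, and tissue 6 stood apart at 8.55.

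Against the lines, 8 of these 12 genes were higher in tissues by limma, beside 9.06% of all genes. Among the 8, APCDD1 differed by 5.05 (SE 0.47) and NDNF by 6.08 (SE 0.94). Against the 2 lines of the same prefix the call was lost for all 8, with APCDD1 at 4.35 (adjusted p = 0.17) and NDNF at 4.65 (adjusted p = 0.219). With the prefix as a covariate APCDD1 (limma adjusted p = 0.0012) and ROBO2 (limma adjusted p = 0.0116) kept the call, and the others lost it. Leaving out tissue 6 ended the call of SCML2 (1.56, adjusted p = 0.0509) and of CYFIP2 (1.17, adjusted p = 0.168), and leaving out tissue 3 that of CYFIP2 (0.82, adjusted p = 0.27). BMP7 did not pass (2.01, limma adjusted p = 0.31). ANK3, the adaptor ankyrin G, differed between the trios by -3.11 and was 8.57 on average in lines, level with the 8.51 of the lower trio. In the dogs with a line, tissue 6 had 8.18 for BMP7 and 8.99 for APCDD1, whereas its line had 2.30 and 1.68. Tissue 5 had 4.25 and 5.63, and its line 6.07 and 2.24. The dogs thus ran in opposite directions for BMP7 and in the same direction for APCDD1.

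**Figure D4:**
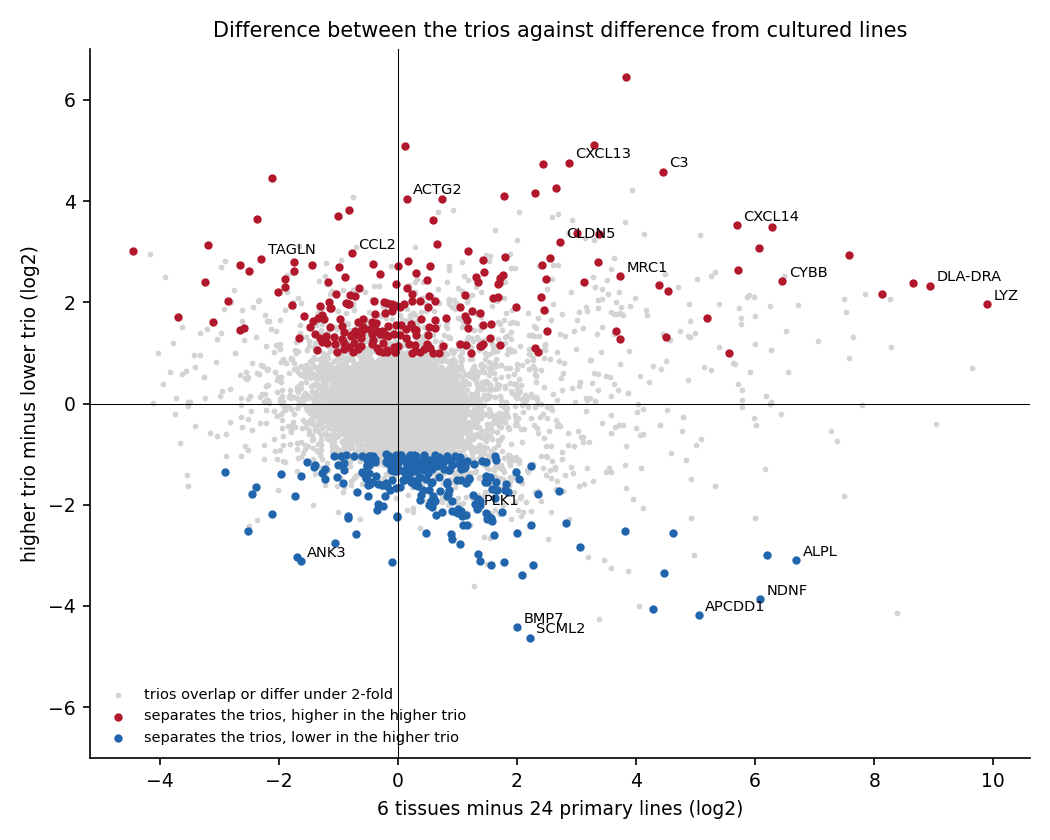
Difference between the trios (higher minus lower, log2) against the difference between the 6 tissues and the 24 primary lines (log2) for all 7849 genes. Red and blue points separate the trios. LYZ (9.89, 1.97) and DLA-DRA (8.94, 2.33) lie at the upper right, ALPL (6.69, -3.10) and NDNF (6.08, -3.87) at the lower right, and TAGLN (-2.29, 2.87) at the upper left.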

How the data were processed

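RNA of canine osteosarcoma tissues and lines was hybridised to Affymetrix Canine_2 arrays. The deposited values are intensities on a linear scale, which the submitters' processing notes attribute to GCRMA run by the authors. Its version and settings, and a genome build, are not stated in those notes. Log2 was taken after a floor at 1, which altered 0 values. Of 43035 probe sets, 175 controls were left out, and a probe set was kept where log2 exceeded 5 on at least 3 arrays. In GEO's platform annotation 29254 probe sets had 1 symbol. The probe set of highest mean stood for each of 7849 genes. Precision is limited by how many arrays there are.

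The rank, the trios and their differences are descriptions with no test. A test was made only for tissues minus primary lines (limma 3.58.1 in R 4.3.3, lmFit and eBayes, the 3 label groups in 1 fit, Benjamini-Hochberg adjustment), and the fit was tested on simulated data. Per the labels, 2 dogs gave both a tissue and a line. Their tissue and line deviated from the means of their groups with correlations of 0.157 and -0.175.

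The members and lists were chosen with earlier results of these data known. The named genes were the 12 widest separations each way, the 4 widest members of each list, members that separate the trios, the markers and class II genes, and osteosarcoma genes. Not all of these are described above, and the immune checkpoint, adipocyte, cartilage, skeletal muscle and erythroid lists are left out as lists. Other list members are given only to state a level. Alternatives were the filter, the probe set rule, quantile normalization, the fold minimum, the title prefix, dog as a block, and leaving out each tissue.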

Additional observations from a re-analysis of the deposited data

Results flagged for a closer look

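Of 155 values screened over the 6 tissues, 21 had a single tissue far from the other 5, by the gap to the nearest tissue as a share of the range. Chance flags about 1 in 20 such groups, and genes of 1 cell type are not independent. Tissue 5 accounted for 12 of the 21, tissue 2 for 5, tissue 1 for 2, and tissues 3 and 6 for 1 each.

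Tissue 5 stood alone at the high end for genes of lymphocytes and of interferon responses. CD3D was 8.81 there, CD3G 6.32, GZMA 5.5, GZMK 7.09 and NKG7 7.61. The chemokine CCL5 was 11.33, the GTPase GBP1 8.90, the tryptophan-degrading enzyme IDO1 6.55 and the checkpoint receptor CTLA4 5.06. The myeloid integrin ITGAX was 6.15 and the sialoadhesin SIGLEC1 5.13. MATN3, a cartilage matrilin, was 6.20. The next highest tissue was 6.72 for CCL5, 5.75 for GBP1 and at most 4.20 for the others.

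Tissue 2 stood alone at the high end for the mast cell genes CPA3 (6.73), CMA1 (5.5) and FCER1A (5.49), and at the low end for CDK1 (8.03) and the replication origin gene ORC1 (3.90). Tissue 1 stood alone for the integrin ITGB3 (6.37) and the osteocyte matrix gene DMP1 (6.80). Tissue 6 stood alone for MDGA2 (8.55) and tissue 3 for MYO3A (10.50).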

How the results depend on the processing

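The number of genes that separate the trios depends on how many tissues must not overlap. It was 229 higher and 267 lower, and 89 and 61 at 4-fold. Leaving out 1 tissue at a time gave 279 to 635 higher and 284 to 659 lower, with the most without tissue 4; fewer tissues overlap less readily by construction. Without ranks 3 and 4 it was 534 and 663, of which 200 and 230 were among the originals. Other filters, quantile normalization and the probe set of largest interquartile range kept both counts within 1.5 times. Of the named genes' differences between the trios, 0 changed sign and 9 moved by more than the spread within trios.

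For tissues minus lines (711 higher, 437 lower), the title prefix as a covariate gave 345 and 222 (220 and 50 shared), and the shared prefix alone 171 and 80 (117 and 23 shared). A filter at log2 7 gave 470 higher, from fewer genes tested, and the probe set of largest interquartile range 662 lower. Leaving out 1 tissue gave 629 to 737 higher and 358 to 441 lower. With dog as a random replicate block the counts were 712 and 441, and of the named genes CXCL10 alone lost its call. CCNE2 reversed to -1.46 with the prefix as a covariate and within it, and COL2A1 to -0.17 without the filter; the cause was not tested. Of the 124 named genes, 28 lost the call with the covariate and 45 within the prefix. Not all of the 124 had a call to lose, so the share lost among called genes was larger than these counts over 124.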

Other observations

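Immediate early genes, which are switched on within minutes of a stimulus, formed a group that was looked at after FOS had been seen. Besides FOS, which prompted the choice, 12 members passed the filter and 8 of them separated the trios, all higher in the higher trio, beside 2.92% of all genes. EGR1 was 10.60, 8.29 and 9.93 in tissues 5, 2 and 1, against 6.60, 7.35 and 4.00 in tissues 3, 4 and 6. DUSP1, a MAP kinase phosphatase, was 13.24, 12.79 and 13.46, against 11.82, 11.63 and 9.67. JUN was 11.39, 10.29 and 10.41, against 8.12, 9.13 and 7.14. IER3 (-0.35) and MYC (-0.45) did not separate. The 3′ to 5′ actin difference was 2.44, 2.72 and 2.73 in tissues 5, 2 and 1, against 4.61, 1.76 and 1.27 in tissues 3, 4 and 6. For GAPDH it was 3.11, 3.40 and 2.96, against 3.46, 3.16 and 3.09, and the part of RNA quality was not tested.

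Class II transcripts were also found in 3 cultured lines. The ranking mean was 10.06 in metastatic line 1, above the 8.50 of tissue 6, and 8.15 in primary line 25 and 6.77 in primary line 5, while the median over the 24 primary lines was 2.18. Macrophage genes were not high in these lines: 1 of 19 was over log2 5 in metastatic line 1, 1 in primary line 25 and 2 in primary line 5, APOE among them in each, and CD163 was 2.47, 2.20 and 2.53.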
